A study of Mus musculus with 36 samples.

Results

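The 39 genes described here encode proteins of the synaptic vesicle cycle in the mouse brain. They were chosen by name from the table of raw counts, which holds 16614 genes, and all 39 were present and passed the filter on low counts in every comparison. By role they are 8 vesicle proteins, 3 calcium sensors and relatives, 9 SNAREs and their regulators, 10 proteins of the clathrin coat, its adaptors and its uncoating, and 9 proteins of membrane fission and shaping. The study used whole brains of postnatal day 5 C57BL/6 mice (WT) and FMR1 KO mice, which lack FMRP, with 10 brains in a preparation. Ribosomes were separated on sucrose gradients into fraction 5/6, labelled as polysome, and the pellet, labelled as granule, and ribosome-protected fragments (RPFs) were sequenced from both. RNA-seq was made from the brain homogenate. Both genotypes went through a pair of protocols, a standard one with 10 mM MgCl2 and more nuclease, and a low nuclease one with 2.5 mM MgCl2. Genotype, fraction and protocol gave 12 groups of 3 libraries, 36 in all. A library is a pool of animals, the knockout is constitutive in every cell, and whole brain mixes cell types, so fewer cells of a type and less RNA per cell cannot be told apart. All p-values measure the spread between these libraries.

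Synaptic vesicles store neurotransmitter and fuse with the presynaptic membrane when calcium enters. SNARE proteins on the vesicle and on the plasma membrane zipper together to drive fusion, synaptotagmins sense calcium, complexins clamp and promote fusion, and NSF with its SNAP adaptors takes the SNARE complexes apart. The membrane is then retrieved by clathrin and its AP-2 adaptor, pinched off by dynamin, and stripped of its coat by synaptojanin and auxilin. The postnatal brain is still forming synapses. FMRP binds mRNAs and polysomes, and neurons are known to move mRNAs with stalled ribosomes in RNA granules, which sediment to the pellet.

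The footprints of these mRNAs were not spread evenly. In the peak lists of the standard RPF libraries, 34 of the 39 genes had at least 1 peak. No transcript of Amph, Dnm2, Itsn2, Snap25 or Sv2b was matched in these lists. A transcript that the lists leave out cannot be told from one without peaks. A site was counted as shared where each library had the middle of a peak within 6 nt of one position. By this rule 4 sites were shared by all 3 WT and all 3 FMR1 KO pellet libraries, and all 4 lay in coding sequence. They are printed here, 30 bases each, 5′ to 3′ on the coding strand from GRCm38, because they had a peak in every pellet library of both genotypes. Capitals mark the bases that the peak covered in all 6 pellet libraries.

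Cplx2, complexin 2, codon 87, exon 4 of 4, chr13:54379549-54379578, plus strand: agaaGGCAGCCCTGGAACAGCCCTGCGAGG
Vamp2, synaptobrevin 2, codon 65, exon 3 of 5, chr11:69089788-69089817, plus strand: TCGGAGCTGGATGACCGTGCAGATGCCCTC
Ap2m1, the mu subunit of AP-2, codon 353, exon 10 of 11 and the exon before it, chr16:20542282-20542294 and chr16:20542639-20542655, plus strand: CCATTGTATGGAAGATCAAGCGCATGGCAG
Dnajc6, auxilin, codon 503, exon 12 of 19, chr4:101618628-101618657, plus strand: tctcttccttggcagCTCCTCCcagcaatt

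The peak heights, which are read coverage and are not scaled between libraries, were tallest for Cplx2. Its heights were 224, 142 and 100 in WT pellet replicates 1 to 3 and 162, 94 and 106 in FMR1 KO pellet replicates 1 to 3. The Vamp2 site had heights of 164, 105 and 76 in WT and 116, 101 and 104 in FMR1 KO. At the Ap2m1 site the heights were 52, 43 and 27 in WT and 65, 38 and 36 in FMR1 KO. WT and FMR1 KO overlapped at these 3 sites. The Dnajc6 site was lower, with 26, 12 and 15 in WT and 16, 11 and 16 in FMR1 KO. No fraction 5/6 library had a peak at the Dnajc6 site, whereas 3 fraction 5/6 libraries had one within 6 nt of the Cplx2 site and 4 near the Vamp2 site. On the whole Dnajc6 transcript, fraction 5/6 replicates 1 to 3 had 23, 1 and 25 peaks in WT and 3, 16 and 1 in FMR1 KO. The count of shared pellet sites without a fraction 5/6 peak fell to 0 when peaks under the library median height were left out. It was also 0 without FMR1 KO pellet replicate 3. With the position set over all 12 libraries, the Ap2m1 site was shared by all of them. The count of shared sites depended on the distance allowed, with 1 site at 3 nt and 24 sites at 12 nt, and on the libraries, with 10 sites without FMR1 KO pellet replicate 2 and 7 and 8 without WT pellet replicates 2 and 3.

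Before the expression results, some facts of the libraries bear on them. Total counts were 6765065 to 40174168 in the standard RPF libraries, 23634940 to 62310787 in the low nuclease RPF libraries, 112249206 to 147216378 in standard RNA-seq and 41586791 to 141505786 in low nuclease RNA-seq. In the standard RPF libraries 36.7 to 63.4% of counts fell on Cdk8, so levels are given as CPM (counts scaled to the library total, with Cdk8 left out). Fmr1, the gene knocked out in FMR1 KO, was at 64.6 to 67.8 CPM in the standard WT pellet and at 4.79 to 4.93 CPM in the FMR1 KO pellet. In standard RNA-seq it was at 60.6 to 72.0 CPM in WT and 16.4 to 18.1 CPM in FMR1 KO. The library labelled WT fraction 5/6 replicate 3 went against its label, with Fmr1 at 3.17 CPM against 100.1 and 68.6 CPM in the other 2, and with Cltc at 2208 CPM, within the range of 1990 to 2210 CPM of the WT pellet and of 1286 to 2353 CPM of the FMR1 KO pellet. FMR1 KO pellet replicate 2, with Cltc at 1286 CPM, lay within the range of 1164 to 1550 CPM of FMR1 KO fraction 5/6. Total counts of calls within the standard preparation are given with and without these 2 libraries, and other values include them unless stated. Of the low nuclease RNA libraries 3 were dominated by few genes (replicate 2 of WT, replicate 2 of FMR1 KO and replicate 3 of FMR1 KO), since their 10 leading genes held 81.5 to 85.0% of all counts, and the vesicle cycle genes took 0.147 to 0.210% of counts against 1.06 to 1.29% in standard RNA-seq. All 6 neuronal markers (Tubb3, Map2, Dcx, Stmn2, Rbfox3 and Gap43) were detected in every group, with a summed level of 6102 to 13880 CPM in the standard libraries.

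Per kilobase of coding sequence, the genes differed widely in the WT pellet of the standard preparation. Among the SNAREs and their regulators, Snap25, the plasma membrane SNARE SNAP-25, was highest at 629 ± 90.3 CPM per kb (SD, n = 3), and Stxbp5, tomosyn, was lowest at 27.3 ± 1.22 CPM per kb. Among the vesicle proteins, Syn1, the vesicle-tethering synapsin I, led at 297 ± 15.2 CPM per kb, and Sv2b, a vesicle glycoprotein, was lowest at 8.5 ± 4.2 CPM per kb. Of the fission and shaping genes, Dnm1, neuronal dynamin, stood at 246 ± 8.35 CPM per kb and Itsn2, the scaffold intersectin 2, at 4.18 ± 0.205 CPM per kb, the lowest of the 39. The synaptotagmins were all low, from Syt4 at 26.7 ± 9.81 to Syt1 at 37.3 ± 17.7 CPM per kb, and these 2 did not separate beyond their spread. Of the clathrin coat genes, Ap2a1 had the highest value at 1480 ± 1032 CPM per kb, but its counts are uncertain for the reason given below, and Cltc, clathrin heavy chain, followed at 417 ± 21.9 CPM per kb, with Ap2m1 lowest at 59.8 ± 7.31 CPM per kb. Levels in RNA are given on another length scale, so their order is not set against that of the pellet. Per kilobase of exon, Vamp2, Cplx2, Syn1 and Cplx1 led the WT RNA-seq at 293, 179, 155 and 151 CPM per kb.

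**Figure D1:**
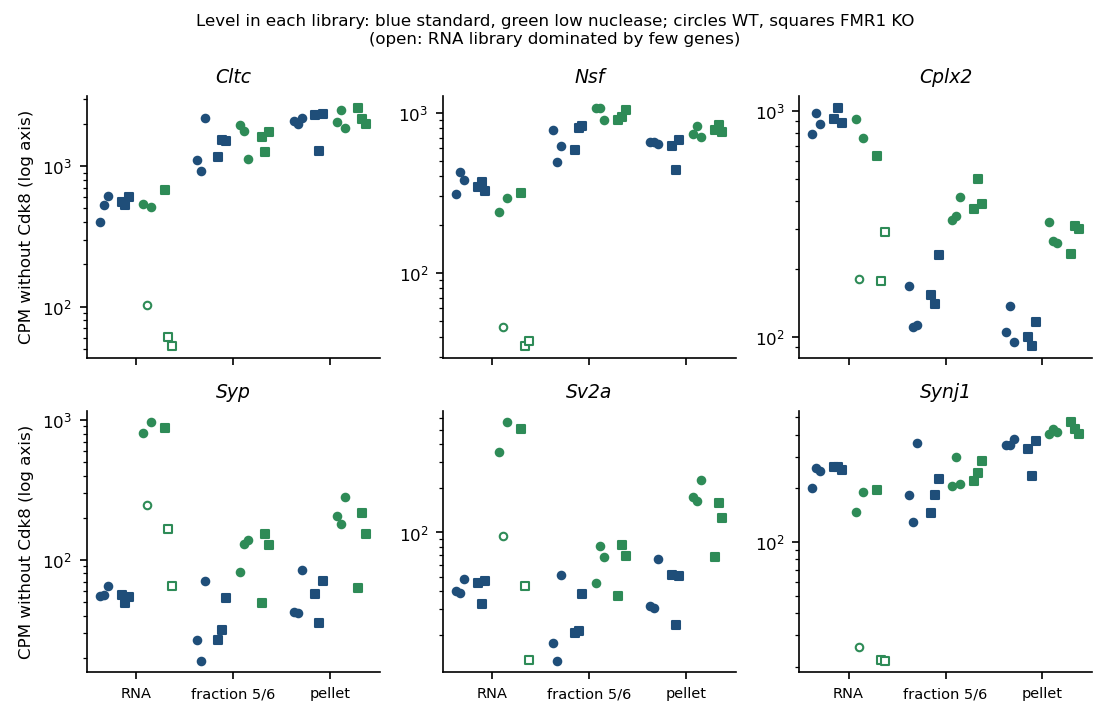
Level of 6 vesicle cycle genes in each of the 36 libraries, as CPM without Cdk8 on a log axis, for RNA, fraction 5/6 and pellet. Blue is standard and green low nuclease, circles are WT and squares FMR1 KO, and open symbols are the 3 RNA libraries dominated by few genes. Cltc in the standard pellet lies at 1286 to 2353 CPM against 402 to 609 CPM in standard RNA, while Cplx2 lies at 91.4 to 137 CPM against 791 to 1034 CPM.

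Occupancy, the RPFs of the pellet relative to RNA-seq, sets the counts of a gene in the pellet against its counts in RNA. No gene length enters this ratio, so between genes it is not a number of ribosomes per mRNA. In WT, 24 of the 39 genes were higher in the pellet than in RNA and 6 were lower, at an adjusted p under 0.05 in edgeR's quasi-likelihood test, where 65.3% of all 16180 genes tested were called, 31.1% higher and 34.2% lower. In FMR1 KO, 25 were higher and 8 lower, against 67% of all genes called, 31.8% higher and 35.2% lower. The median log2 difference of the 39 was 0.79 in WT and 0.61 in FMR1 KO, against -0.10 and -0.07 over all genes tested. Without FMR1 KO pellet replicate 2 the FMR1 KO counts were 23 higher and 7 lower, against 67.2% of all genes. All differences are relative to the middle of all genes, which TMM scaling sets near 0. With library size alone, without Cdk8 and without TMM, that middle moved to -1.26 in WT and -1.17 in FMR1 KO, and the split of the 39 became 8 higher and 15 lower in WT and 3 higher and 16 lower in FMR1 KO. Of the genes called higher, 10 in WT and 12 in FMR1 KO then changed sign.

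With TMM scaling, most genes of coat assembly and fission were on the high side. Of the 10 clathrin coat, adaptor and uncoating genes, 8 were higher and 1 lower in both genotypes, and of the 9 fission and shaping genes, 8 were higher and none lower in both. The 8 coat genes include Ap2a1, whose counts are uncertain. Without TMM 6 of the 8 coat genes were above 0 in WT and 3, namely Ap2a1, Ap2b1 and Cltc, in FMR1 KO, and of the 8 fission genes 5 and 6 were. The calls without TMM were 3 higher and 2 lower for the coat genes in WT and 2 and 2 in FMR1 KO, and 4 higher and 2 lower for the fission genes in WT and 0 and 2 in FMR1 KO. Cltc, which forms the legs of the clathrin triskelion, was at 2102, 1990 and 2210 CPM in the 3 WT pellet libraries and at 402, 530 and 609 CPM in the WT RNA libraries. The groups did not overlap, and the log2 difference was 3.20 ± 0.21 (SE, adjusted p = 1.5e-05). In FMR1 KO it was 2.90 ± 0.18 (adjusted p = 1.9e-05), and 2.99 ± 0.11 without pellet replicate 2. Nsf, the ATPase that recycles SNARE complexes, was at 657, 655 and 634 CPM in the WT pellet and at 311, 429 and 381 CPM in WT RNA, a log2 difference of 1.95 ± 0.16 (adjusted p = 4.0e-05). Amph, amphiphysin, which bends membrane and recruits dynamin, differed by 1.88 ± 0.16, Synj1, the phosphatase synaptojanin that sheds the coat, by 1.76 ± 0.16, and the dynamins Dnm3, Dnm1 and Dnm2 by 1.73 ± 0.14, 1.58 ± 0.19 and 1.53 ± 0.11 in WT. Itsn2 was the one gene of its role not called, at 0.02 ± 0.13.

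The genes on the low side were the complexins, the vesicle SNARE, a synaptogyrin, an adaptor subunit and a chaperone. Cplx2 was at 106, 137 and 95.0 CPM in the WT pellet and at 791, 981 and 873 CPM in WT RNA. Every pellet library lay below every RNA library, and the log2 difference was -1.83 ± 0.15 (adjusted p = 3.7e-05) in WT and -2.09 ± 0.16 (adjusted p = 4.2e-05) in FMR1 KO. Vamp2, the vesicle SNARE, was at 210, 277 and 162 CPM in the WT pellet and 1116, 1120 and 1116 CPM in WT RNA, which gave -1.23 ± 0.16. Syngr1, the vesicle membrane protein synaptogyrin 1, was at 7.94, 12.2 and 11.9 CPM in the WT pellet and 69.7, 82.6 and 93.2 CPM in WT RNA, which gave -1.79 ± 0.19. Cplx1 at -1.56 ± 0.14, Ap2m1 at -1.37 ± 0.12 and Dnajc5, the vesicle chaperone CSP-alpha, at -0.89 ± 0.13 made up the 6 in WT. In FMR1 KO the same 6 were joined by Syngr3 at -0.61 ± 0.23 and Syt1, the calcium sensor of fast release, at -0.34 ± 0.12. With TMM scaling the 2 SNAREs of the plasma membrane did not follow Vamp2, with Snap25 at 0.75 ± 0.13 (adjusted p = 0.0017) and Stx1a, syntaxin 1A, at 0.24 ± 0.14 (adjusted p = 0.18) in WT. Without TMM this contrast did not hold, since 7 of the 9 SNAREs and their regulators were called lower and 1 higher in WT. Of the 4 called higher with TMM, Snap25 among them, only Nsf then stayed above 0.

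**Figure D2:**
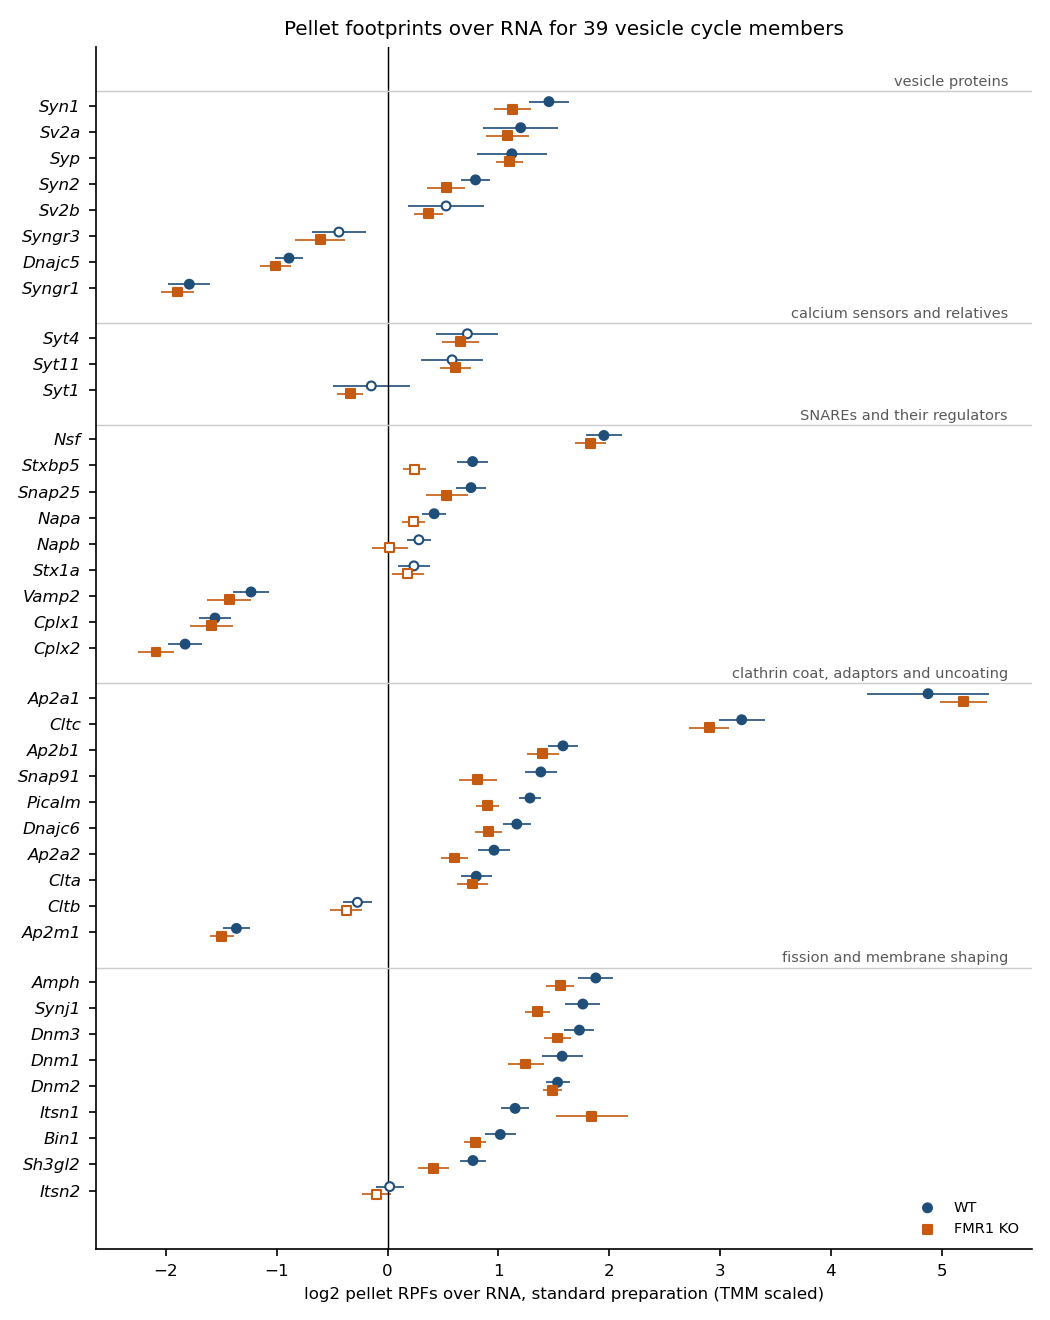
Log2 difference between pellet RPFs and RNA for the 39 genes in the standard preparation, TMM scaled, by role. Blue circles are WT and orange squares FMR1 KO, bars are standard errors from 3 against 3 libraries, and filled symbols passed an adjusted p of 0.05. Cltc lies at 3.20 in WT and Cplx2 at -1.83, and Ap2a1 shares reads with an antisense gene.

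Longer coding sequences tended to have higher occupancy, with exceptions. Across 38 genes, leaving out Ap2a1, the rank correlation of pellet over RNA with coding length was 0.73 in WT and 0.71 in FMR1 KO, against 0.37 and 0.37 over all genes tested. In the low nuclease preparation it was 0.49 and 0.50, against 0.14 and 0.09. These are descriptions across genes of the same libraries, and the part of length in the result was not tested. Coding length is that of the longest annotated coding sequence. Among the genes named above, Cltc has 5037 coding nt and Synj1 4821, while Cplx1 and Cplx2 have 402 each and Vamp2 489. Itsn2, with 5055 nt, was not called, Snap25, with 618 nt, was higher, and Ap2m1, with 1305 nt, was lower. The coding share of the exons differed too, with exon nt counted over all transcripts of a gene. It was 402 of 4928 nt in Cplx2 and 5037 of 8499 nt in Cltc, but 2589 of 24452 nt in Dnm3, which was higher. The part of this share in the result was not tested.

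Fraction 5/6 relative to RNA uses the same RNA libraries as the pellet does, so its values stand beside those of the pellet and are not independent of them. In WT 21 of the 39 genes were higher and 6 lower, against 55.9% of all genes called, 28.3% higher and 27.6% lower. In FMR1 KO 23 were higher and 8 lower, against 62.8%, 29.7% higher and 33.1% lower. Cltc was at 1116 and 918 CPM in the first 2 WT fraction 5/6 libraries and at 2208 CPM in the library labelled WT fraction 5/6 replicate 3, a log2 difference from RNA of 2.7 ± 0.37. In FMR1 KO it was at 1164, 1550 and 1514 CPM, which gave 2.3 ± 0.19. Nsf differed by 2.01 ± 0.23 in WT and 2.00 ± 0.18 in FMR1 KO, Cplx2 by -1.49 ± 0.23 and -1.55 ± 0.16, and Syngr1 by -1.93 ± 0.21 and -2.0 ± 0.16. Itsn1 differed by 2.43 ± 0.52 in WT, but its 3 fraction 5/6 libraries were far apart at 529, 930 and 353 CPM. Leaving out the doubtful WT library gave 21 higher and 10 lower, against 59.9% of all genes, while leaving out all replicates 1, or all replicates 2, gave 15 calls each.

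Enrichment, the RPFs of the pellet relative to fraction 5/6, asks which mRNAs were found more in the pellet. In WT edgeR called none of the 39 genes, 2 had an unadjusted p under 0.05 and DESeq2 also called none, and 0.0229% of all 13128 genes tested were called, 0.0152% higher and 0.00762% lower. Without the 2 libraries that stand apart, WT gave 6 genes higher and none lower, against 9.42% of all genes. These were Synj1 at 1.16 ± 0.15, Ap2b1 at 0.82 ± 0.15, Dnajc6 at 0.76 ± 0.13, Stxbp5 at 0.72 ± 0.13, Ap2a2 at 0.63 ± 0.12 and Dnm2 at 0.63 ± 0.11. In FMR1 KO 5 of the 39 were higher and none lower, where 11.5% of all genes were called, 10.1% higher and 1.4% lower. The same 5 were higher without the library of FMR1 KO that stands apart, against 10.3% of all genes. Without TMM none was called, and DESeq2 called 10 higher and 4 lower. The count rested on few libraries, with 1 call without FMR1 KO pellet replicate 1, and 2 and 3 calls without FMR1 KO fraction 5/6 replicates 1 and 3. Synj1 was at 333, 235 and 368 CPM in the FMR1 KO pellet and 146, 185 and 226 CPM in fraction 5/6, and the groups did not overlap (log2 1.09 ± 0.15, adjusted p = 0.0067). Sv2a, the vesicle glycoprotein that binds levetiracetam, was at 51.7, 23.4 and 50.5 CPM in the pellet and 20.7, 21.2 and 38.1 CPM in fraction 5/6, where the groups overlapped (1.00 ± 0.19, adjusted p = 0.019). Syp, synaptophysin, differed by 0.92 ± 0.14, Syt11, a synaptotagmin that does not bind calcium, by 0.85 ± 0.13 and Sv2b by 0.82 ± 0.12. Of these 5, 4 are integral membrane proteins of the vesicle, but none of the 6 called in WT without the doubtful libraries was among the 8 integral members defined below.

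In the low nuclease preparation the enrichment calls were more numerous. In WT 9 of the 39 were higher and 2 lower, against 22.9% of all genes, 14.3% higher and 8.6% lower. In FMR1 KO 7 were higher and 5 lower, against 20% of all genes, 9.31% higher and 10.7% lower. Sv2a was at 174, 165 and 227 CPM in the low nuclease WT pellet and 45.3, 81.4 and 68.2 CPM in fraction 5/6, with no overlap (log2 1.66 ± 0.24, adjusted p = 0.010), and Sv2b differed by 1.31 ± 0.25. Same-numbered pellet and fraction 5/6 libraries varied together in low nuclease WT, and a fit blocked on that number called 13 higher and 3 lower there, against 32.3% of all genes. Of the 8 integral members 5 were called higher in low nuclease WT, and 7 with the block. In low nuclease FMR1 KO Sv2a was at 68.2, 158 and 124.8 CPM in pellet replicates 1 to 3 and at 36.8, 81.9 and 69.1 CPM in fraction 5/6 replicates 1 to 3. The groups overlapped, replicate 1 was the lowest in both, and the log2 difference was 1.10 ± 0.37 (adjusted p = 0.085). Synj1 was higher in both genotypes there, at 0.92 ± 0.20 and 0.99 ± 0.15. The 5 lower genes in FMR1 KO were the clathrin light chains Clta and Cltb at -0.65 ± 0.15 and -0.54 ± 0.10, Cplx1 at -0.57 ± 0.12, Vamp2 at -0.57 ± 0.13 and Napa, the SNAP adaptor of NSF, at -0.39 ± 0.10. Rank correlations of enrichment with coding length across 38 genes were 0.65 in the standard FMR1 KO, 0.50 in the low nuclease WT and 0.71 in the low nuclease FMR1 KO libraries, against 0.57, 0.48 and 0.60 over all genes tested.

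**Figure D3:**
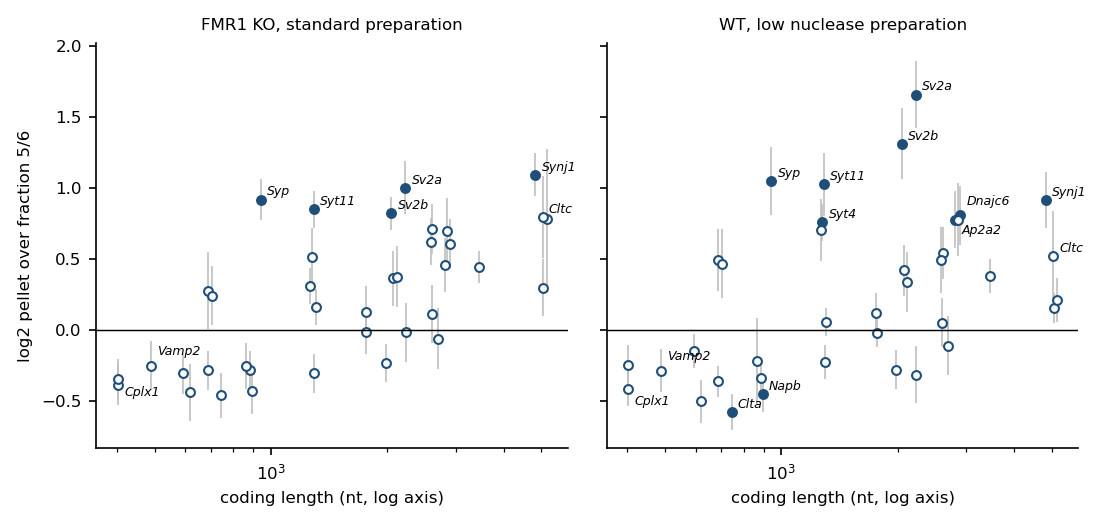
Log2 pellet over fraction 5/6 against coding length (nt, log axis) for 38 genes, without Ap2a1, in the standard FMR1 KO and the low nuclease WT libraries. Bars are standard errors from 3 against 3 libraries and filled circles passed an adjusted p of 0.05. Synj1 at 1.09 and Sv2a at 1.00 are among the 5 called in FMR1 KO, and the short Clta at -0.58 is called lower in the low nuclease WT libraries.

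Loss of FMRP was compared next, in the pellet, in fraction 5/6, in RNA, and in pellet over RNA and pellet over fraction 5/6. In the standard preparation edgeR called none of the 39 genes in any of these 5 comparisons, where 0.0152%, 0%, 0.0736%, 0.067% and 0% of all genes were called. DESeq2 also called none of the 39 in any of them. At an unadjusted p under 0.05 in edgeR there were 3, 0, 1, 3 and 1 of the 39. In the pellet the 3 were Stxbp5 at -0.38 ± 0.12, Snap91, the clathrin adaptor AP180, at -0.40 ± 0.15 and Itsn1 at 0.82 ± 0.33, and all 3 had an adjusted p of 0.86. Stxbp5 was at 90.1, 94.0 and 98.6 CPM in WT and 78.1, 51.3 and 86.7 CPM in FMR1 KO, without overlap. Itsn1 was at 293, 294 and 296 CPM in WT and 321, 578 and 556 CPM in FMR1 KO, also without overlap. Without FMR1 KO pellet replicate 2 they stood at -0.33 ± 0.13 for Stxbp5, -0.32 ± 0.16 for Snap91 and 0.43 ± 0.23 for Itsn1. Without both libraries that stand apart none of the 39 was called in the pellet, in fraction 5/6, in pellet over RNA or in pellet over fraction 5/6, with 1 at an unadjusted p under 0.05 in each, against 0.0599%, 0.0306%, 0.133% and 0% of all genes called. Stxbp5 and Itsn1 were the only 2 of the 39 whose genotypes did not overlap in the standard pellet, against 6.37% of all genes. The median log2 difference of the 39 between FMR1 KO and WT was -0.08 in the pellet, -0.11 in fraction 5/6 and 0.07 in RNA, and the median standard error of a gene was 0.14, 0.23 and 0.13. Cltc differed by -0.09 ± 0.21 in the pellet. In fraction 5/6 Napb, and in RNA Dnajc5, was the 1 gene without overlap, above WT in FMR1 KO, against 6.76% and 8.07% of all genes. In the low nuclease libraries edgeR also called none of the 39 in any of the 5 comparisons, with 2, 0, 0, 0 and 0 at an unadjusted p under 0.05, where 0.0197%, 0.0445%, 0%, 0.0187% and 0.0189% of all genes were called. There 2 genes did not overlap in the pellet, against 10.8% of all genes, 5 in fraction 5/6, against 16.7%, and none in RNA, against 0.278%.

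The 2 preparations were then compared within each fraction and genotype. Protocol, nuclease and MgCl2 changed together and cannot be told apart. In the pellet 5 of the 39 genes were higher in the standard preparation and 10 lower in WT, against 39% of all genes called, 15% higher and 24% lower. In FMR1 KO 2 were higher and 4 lower, against 17%, 7.42% higher and 9.54% lower. In fraction 5/6 the counts were 1 and 3 in WT, against 9.7%, 2.94% higher and 6.77% lower, and 1 and 5 in FMR1 KO, against 20.9%, 10% higher and 10.9% lower. Without the 2 libraries that stand apart they were 3 and 9 in WT fraction 5/6, against 13.5% of all genes, and 1 and 2 in the FMR1 KO pellet, against 9.35%. The largest fall in FMR1 KO was Stx1a. It was at 133, 113 and 137 CPM in the standard FMR1 KO pellet and 775, 1044 and 981 CPM in the low nuclease one (log2 -2.34 ± 0.18, adjusted p = 0.0020), and at 139, 151 and 111 CPM against 537, 545 and 834 CPM in WT (-1.74 ± 0.22, adjusted p = 0.0041). Its RNA was at 224, 289 and 241 CPM in the standard WT libraries and at 281 and 220 CPM in the 2 low nuclease WT RNA libraries that were not dominated by few genes.

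A class of 8 integral membrane proteins differed between preparations most clearly in RNA. These are Syp, Sv2a, Sv2b, Syngr1, Syngr3, Syt1, Syt4 and Syt11, which are made on the endoplasmic reticulum and span the vesicle membrane. The class was drawn up after the values had been seen, so its counts are a description. It leaves out the tail-anchored SNAREs Vamp2 and Stx1a, whose RNA differed by 0.65 ± 0.26 (adjusted p = 0.078) and -0.31 ± 0.21 (adjusted p = 0.29) in WT, and without the dominated libraries Vamp2 was higher in the standard preparation, at 0.57 ± 0.20 in WT and 0.66 ± 0.21 in FMR1 KO. These 8 genes took 3.36 to 4.54% of the counts of the vesicle cycle genes, without Ap2a1, in the standard RNA libraries and 13.1 to 34.6% in the low nuclease RNA libraries. The ranges did not overlap, and the highest and the lowest of the low nuclease values came from libraries dominated by few genes. In RPFs the shares were 1.46 to 3.76% in the standard and 2.21 to 9.55% in the low nuclease libraries. Syp RNA was at 54.8, 56.3 and 64.6 CPM in the standard WT libraries and at 809, 248 and 960 CPM in the low nuclease WT libraries (log2 -4.57 ± 0.37, adjusted p = 6.5e-05). All 8 were lower in standard than in low nuclease WT RNA, with a median log2 difference of -2.58, and 7 of 8 were lower in FMR1 KO RNA, with a median of -2.44. Of the other 31 genes 4 were higher and 1 lower in WT RNA, and 1 was higher and 1 lower in FMR1 KO RNA, where 37.7% of all genes were called in WT, 15.9% higher and 21.9% lower, and 22.2% in FMR1 KO, 7.45% higher and 14.7% lower. Without the dominated libraries all 8 were lower in both genotypes, where FMR1 KO had 1 low nuclease RNA library left, assumed to vary like the other group. Of the other 31 genes 7 were then higher and 1 lower in WT and 8 higher and 3 lower in FMR1 KO, where 46.2% of all genes were called in WT, 22.8% higher and 23.4% lower, and 48% in FMR1 KO, 23.6% higher and 24.4% lower. The summed level of the 6 neuronal markers moved the other way, at 796 to 6468 CPM in low nuclease RNA against 7782 to 9029 CPM in standard RNA. The erythroid markers did so too, at 4.95 to 127 CPM against 235 to 551 CPM, and the ranges of the other 5 marker lists overlapped. All these low nuclease ranges include the 3 RNA libraries dominated by few genes, in which little of the total is left for other genes. In the WT pellet all 8 were lower as well, with a median of -1.61, and in the FMR1 KO pellet 2 of 8 were, with a median of -1.17. In fraction 5/6 2 of 8 were lower in WT and 3 of 8 in FMR1 KO. Markers of several other cell types were also lower in the standard than in the low nuclease WT pellet. The 6 oligodendrocyte markers summed to 106 to 149 CPM in the standard and 223 to 359 CPM in the low nuclease libraries, the 3 endothelial markers to 1.65 to 2.35 and 10.9 to 20.6 CPM, the 4 microglial markers to 106 to 110.2 and 154 to 158 CPM, and the 5 erythroid markers to 7.30 to 19.2 and 25.6 to 34.96 CPM. The liver markers, of which 1 was above 1 CPM, summed to 21.3 to 30.01 and 57.02 to 179 CPM. The 6 neuronal markers, at 7085 to 9380 and 7600 to 9760 CPM, and the 5 astrocyte markers, at 876 to 1153 and 783 to 1064 CPM, overlapped. In the FMR1 KO pellet the oligodendrocyte markers were at 81.0 to 130.2 and 139 to 266 CPM, the microglial ones at 76.8 to 115.3 and 137.7 to 148 CPM and the erythroid ones at 4.15 to 11.2 and 16.1 to 22.4 CPM, without overlap. The endothelial ones overlapped there at 2.96 to 6.38 and 5.23 to 23.3 CPM, as did the liver, neuronal and astrocyte markers. The part of these cells in the result was not tested.

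**Figure D4:**
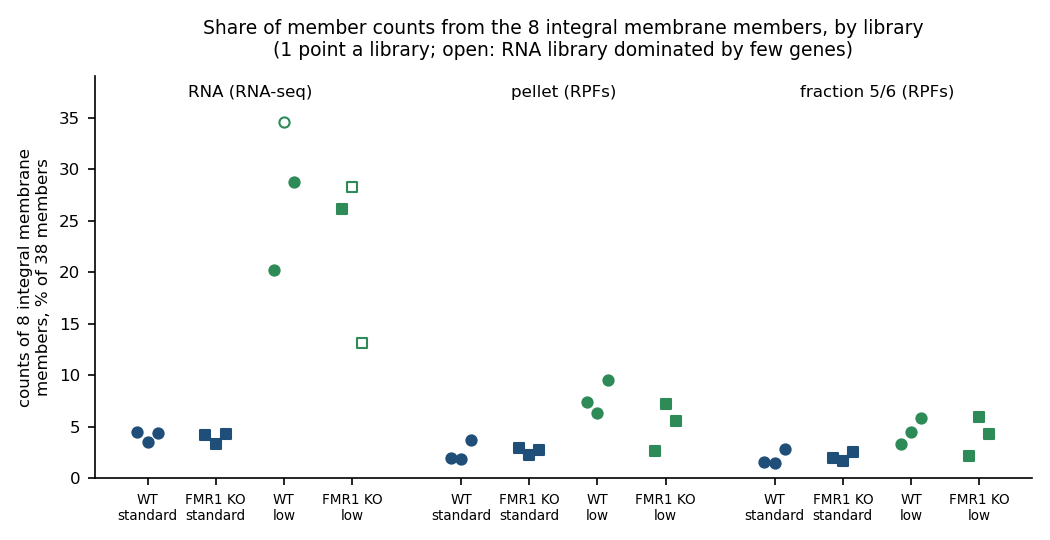
Share of the counts of 38 vesicle cycle genes, without Ap2a1, that came from 8 integral membrane members (Vamp2 and Stx1a not among them), 1 point for each of the 36 libraries. Blue is standard and green low nuclease, circles are WT and squares FMR1 KO, and open symbols are RNA libraries dominated by few genes. Standard RNA lies at 3.36 to 4.54% and low nuclease RNA at 13.1 to 34.6%.

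For Syp, Sv2a and Syt11 the occupancy had another sign in each preparation in both genotypes, while Syngr1 was lower in both preparations and genotypes. The change of sign was seen against low nuclease RNA and not against standard RNA. With low nuclease RPFs against standard RNA, Syp was at 2.40 ± 0.18 in WT and 1.90 ± 0.39 in FMR1 KO, Sv2a at 2.65 ± 0.16 and 1.98 ± 0.29 and Syt11 at 1.56 ± 0.16 and 1.06 ± 0.34, all called higher, and Syngr1 was at 0.10 ± 0.15 and -0.25 ± 0.33, not called. Syp was higher in the pellet than in RNA by 1.12 ± 0.32 in the standard WT libraries and lower in the low nuclease WT libraries, at -1.93 ± 0.37 (adjusted p = 0.0040). Tested as an interaction, the difference between preparations was 2.95 ± 0.54 in WT (adjusted p = 0.0025) and 3.32 ± 0.58 in FMR1 KO (adjusted p = 0.0039). Sv2a gave 2.1 ± 0.49 and 2.1 ± 0.65, and Syt11 gave 1.95 ± 0.48 and 2.31 ± 0.58. Over the 39 genes, 6 were higher and 5 lower by this interaction in WT, against 26.6% of all genes called, 6.9% higher and 19.7% lower. In FMR1 KO the counts were 5 and 6, against 18.5%, 6.53% higher and 12% lower. Without the dominated libraries they were 7 and 8 in WT, against 29.1% of all genes, and 6 and 7 in FMR1 KO, against 25%. In all 4 fits of pellet over RNA, by genotype and preparation, 15 genes were higher, namely Amph, Ap2a1, Ap2b1, Cltc, Dnajc6, Dnm1, Dnm2, Dnm3, Nsf, Picalm, Sh3gl2, Snap91, Syn1, Syn2 and Synj1, against 12.3% of the 15088 genes tested in all 4, and Cplx1, Cplx2, Syngr1 and Vamp2 were lower, against 8.96%. Of the 15, Ap2a1 is uncertain as told below, and without TMM 13 were above 0 in standard WT and 10 in standard FMR1 KO. Without the dominated RNA libraries Amph at 0.81 ± 0.25 (adjusted p = 0.067), Ap2b1 at 1.10 ± 0.29 (adjusted p = 0.0501) and Cplx2 at -0.73 ± 0.21 (adjusted p = 0.061) were not called in low nuclease FMR1 KO. In the low nuclease preparation 52.1% of all genes were called in WT, 26.6% higher and 25.5% lower, and 28.9% in FMR1 KO, 16.1% higher and 12.9% lower. Cltc there differed by 2.35 ± 0.32 in WT and 2.55 ± 0.38 in FMR1 KO, and Cplx2 by -1.33 ± 0.27 and -1.95 ± 0.50.

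Ap2a1, the alpha subunit of AP-2, could not be read as other genes. It lies on the minus strand at chr7:44900373-44929496 in GRCm38, and its end overlaps Fuz, on the plus strand at chr7:44896079-44902631. The exons of both genes share 252 and 468 bases, and without strand their reads cannot be told apart. In the standard RPF libraries Ap2a1 ranged from 328 to 8261 CPM and Fuz from 59.3 to 7431 CPM, and Ap2a1 exceeded Fuz by 150 to 402 CPM in 11 of 12 libraries. The exception was the library labelled WT fraction 5/6 replicate 3, at 1610 CPM. The excess was 195 to 288 CPM in standard RNA. Ap2a1 was at 193 to 569 CPM in the low nuclease RPF libraries, where Fuz was the higher of the 2 in 3 pellet libraries. The fitted difference of 4.88 ± 0.55 between WT pellet and RNA therefore cannot be assigned to Ap2a1.

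**Figure D5:**
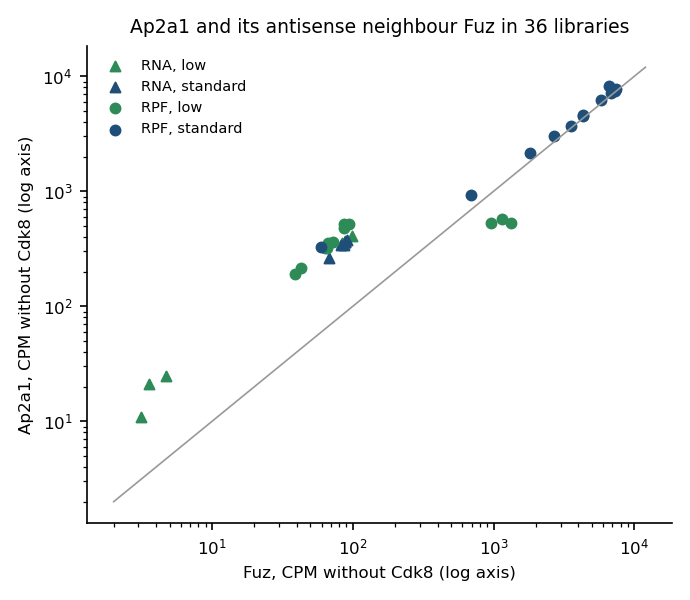
Ap2a1 against Fuz in 36 libraries, both as CPM without Cdk8 on log axes, with the line of equal values. Circles are RPFs and triangles RNA, blue is standard and green low nuclease. In 11 of the 12 standard RPF libraries Ap2a1 lies 150 to 402 CPM above Fuz, while Fuz ranges from 59.3 to 7431 CPM.

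Peaks of RPFs were next compared within each group, since the study asked whether FMRP sets where ribosomes stall. The standard RPF libraries had 147 to 265 peaks each on the vesicle cycle genes. The 3 WT pellet libraries shared 23 sites in 12 genes and the 3 FMR1 KO pellet libraries 27 sites in 13 genes. Fraction 5/6 had 14 sites in 8 genes in WT and 16 sites in 9 genes in FMR1 KO. Of the WT pellet sites 6 had no peak in any FMR1 KO pellet library, and of the FMR1 KO pellet sites 9 had none in any WT pellet library. No test was made of these counts. Leaving out 1 library of a group raised the shared sites to 46 to 51 in the WT pellet, 47 to 66 in the FMR1 KO pellet, 29 to 42 in WT fraction 5/6 and 30 to 52 in FMR1 KO fraction 5/6, the 42 without the library labelled WT replicate 3. Without 1 pellet library the sites found in 1 genotype alone came to 6 to 19 in WT and 11 to 34 in FMR1 KO, 20 of the latter without FMR1 KO pellet replicate 2. All shared pellet sites were coding. Dnajc6 had 4 shared sites in the pellet of each genotype, Ap2m1 and Cplx2 had 3 each in WT and 2 each in FMR1 KO, Vamp2 had 3 in WT and 1 in FMR1 KO, and Cltb and Stx1a had none in WT and 4 and 3 in FMR1 KO. Each of the 3 Stx1a sites had a peak in at least 1 WT pellet library, and 2 of the 4 Cltb sites had none in any. The Cplx2, Vamp2 and Ap2m1 sites printed above all hold the letters TGGA. The word TGGA, the word AGGA, the word ACTG and the word ACTT were searched on the coding strand only, in 30-base windows that lay wholly in coding sequence, and words may overlap. TGGA was in 31.8% of 22 windows of the WT pellet and 38.5% of 26 windows of the FMR1 KO pellet, against 21.4% of all 61153 coding windows of the same length in these transcripts. In fraction 5/6 it was in 33.3% of 12 windows in WT and 35.7% of 14 in FMR1 KO. In the WT and FMR1 KO pellet windows AGGA was in 9.1% and 19.2%, against 18% of all windows. In the same windows ACTG was in 18.2% and 3.8%, against 11.6%, and ACTT was in 13.6% and 7.7%, against 9.8%. Any of the 4 words was in 63.6% and 61.5% of the pellet windows, against 48.7% of all windows.

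Other genes of the same pathway, 59 of 60 listed and present in the table, were counted beside the 39. In pellet over RNA 22 were higher and 21 lower in WT, against 31.1% and 34.2% of all genes, and 23 and 20 in FMR1 KO, against 31.8% and 35.2%. The largest rises in WT were Atp6v1h and Atp6v1a, subunits of the proton pump that acidifies vesicles, at 2.86 ± 0.13 and 2.3 ± 0.15, and the largest falls were the synaptotagmins Syt2 and Syt7 at -2.99 ± 0.19 and -2.69 ± 0.20. In pellet over fraction 5/6 none of 57 tested was called in WT, and in FMR1 KO 6 were higher and 1 lower, against 10.1% and 1.4% of all genes. Slc18a2 and Slc32a1, the vesicular transporters of monoamines and of GABA, were higher at 1.20 ± 0.30 and 0.90 ± 0.17, and Vamp4 was lower at -0.64 ± 0.11. No other pathway gene was called between genotypes in any of the 5 comparisons. Between preparations 15 of 19 integral membrane proteins of this list were lower in standard than in low nuclease WT RNA, against 21.9% of all genes, with Sv2c at -3.13 ± 0.33 and Syt3 at -3.02 ± 0.22, and of the other 40 genes 11 were higher and 2 lower. In FMR1 KO RNA 11 of the 19 were lower and 1 of the 40, against 14.7% of all genes.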

How the data were processed

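RPFs and RNA-seq were analysed from 36 libraries, with groups read from the labels. The authors deposited raw counts per gene as whole numbers, made, per the labels and the study's methods, with cutadapt 2.10, Bowtie2 2.3.5 to remove ribosomal and non-coding RNA, STAR 2.7.8a on GRCm38, Picard and SAMtools 1.19.2 to remove duplicates, and featureCounts 2.2.0. Whether counting used strand is not given in the sources used here. The authors also deposited 12 peak lists, whose heights are RPF coverage (a signal) not scaled between libraries. The zenith of each peak was set at its midpoint. The table had 2 empty columns of no sample, not used.

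Counts of protein-coding genes (16568, biotypes and lengths from GENCODE on the same build) without Cdk8 were filtered with filterByExpr, TMM normalized and tested with edgeR 4.0.16 (quasi-likelihood, limma 3.58.1, R 4.3.3), 2 groups at a time, with Benjamini-Hochberg adjustment over all genes tested and a threshold of 0.05. SE is the log2 difference divided by the square root of F. Comparisons between preparations of RNA, and of pellet over RNA, were added after the data had been seen. Same-numbered libraries were taken as pairs where every correlation of their deviations from the group means was over 0.1. This held for low nuclease WT pellet and fraction 5/6 (0.24, 0.19 and 0.31) and for no other comparison checked. Levels and figures used Python 3.11.15 and matplotlib 3.10.9. The genes named were the 3 largest rises and falls among those called, and in each role the genes with the most and fewest footprints per length in the WT pellet (2 and 2 for other pathway genes); the rest were named after their values had been seen. Members and lists were chosen with earlier results of these data known. Alternatives were DESeq2 1.42.0, no TMM, other count filters, a replicate block, the low nuclease preparation and leaving out libraries.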

Additional observations from a re-analysis of the deposited data

Results flagged for a closer look

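The log2 difference between pellet RPFs and RNA was not the same in the standard and the low nuclease preparation for 11 of the 39 genes in each genotype, tested as an interaction in edgeR and called at an adjusted p under 0.05, where 26.6% of all genes were called in WT and 18.5% in FMR1 KO. Positive values mean a larger difference in the standard preparation. In WT the interaction was 3.52 for Ap2a1, whose reads overlap Fuz, 2.95 for Syp, 2.1 for Sv2a, 1.95 for Syt11, 1.57 for Itsn1 and 0.72 for Amph. It was -1.63 for Stx1a, -1.06 for Napb, -0.87 for Picalm, -0.87 for Ap2m1 and -0.55 for Sh3gl2. In FMR1 KO it was 3.43 for Ap2a1, 3.32 for Syp, 2.55 for Itsn1, 2.31 for Syt11 and 2.1 for Sv2a. It was -2.12 for Stx1a, -1.28 for Napa, -1.04 for Ap2m1, -1.03 for Napb, -0.90 for Picalm and -0.73 for Sh3gl2. Both RNA and RPF libraries enter the interaction, and 3 of the 6 low nuclease RNA libraries were dominated by few genes. Without them 15 genes were called in WT, against 29.1% of all genes, and 13 in FMR1 KO, against 25%, in a fit chosen after the data had been seen.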

How the results depend on the processing

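Library size without TMM moved the calls to 19 for FMR1 KO pellet over RNA, 16 for FMR1 KO fraction 5/6 over RNA, 0 for FMR1 KO pellet over fraction 5/6, 25 and 11 for standard against low nuclease in the WT and FMR1 KO pellet, and 11 in WT fraction 5/6. DESeq2 gave 14 for FMR1 KO pellet over fraction 5/6, 12 for the preparations in the FMR1 KO pellet, and 9 and 13 in WT and FMR1 KO fraction 5/6. A minimum of 10 counts in every library gave 8 for FMR1 KO pellet over fraction 5/6. The low nuclease preparation gave 11 and 12 for pellet over fraction 5/6 in WT and FMR1 KO. Leaving out both libraries that stand apart gave 6 for WT pellet over fraction 5/6, and 3 and 12 for the preparations in the FMR1 KO pellet and WT fraction 5/6. Without the dominated libraries 19 were called between preparations in FMR1 KO RNA. The causes were not tested. With a replicate block, added after seeing the data, the low nuclease preparation gave 16 and 18 for pellet over fraction 5/6 in WT and FMR1 KO, and 6 of the 8 integral members were higher in FMR1 KO against none without it. Its FMR1 KO numbers were not taken as pairs, since same-numbered libraries correlated at 0.42, 0.24 and -0.01. Low nuclease WT fraction 5/6 and RNA correlated at 0.071, 0.11 and 0.17, where each library correlated best with its own number. In no comparison checked that used standard libraries were all correlations over 0.1, and a replicate block moved the calls between preparations to 3 in the FMR1 KO pellet, 2 in WT fraction 5/6 and 2 in FMR1 KO fraction 5/6, and kept the other counts within 1.5 times.

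Leaving out 1 library, or 1 replicate number from every group compared, gave 28 to 32 calls for WT and 24 to 33 for FMR1 KO pellet over RNA, 15 to 31 and 23 to 31 for fraction 5/6 over RNA, and 0 to 6 and 0 to 10 for pellet over fraction 5/6. Between preparations it gave 3 to 16 and 0 to 12 in the pellet and 0 to 12 and 0 to 9 in fraction 5/6, and 0 to 0 between genotypes. Leaving out a replicate number moved counts by over 1.5 times for WT fraction 5/6 over RNA (15 without number 1 and 15 without 2), WT pellet over fraction 5/6 (4 without 3) and FMR1 KO pellet over fraction 5/6 (0, 10 and 0 without 1, 2 and 3). Between preparations it did so in the WT pellet (3 and 8 without 1 and 2), the FMR1 KO pellet (2 and 0 without 2 and 3), WT fraction 5/6 (0, 0 and 1 without 1, 2 and 3) and FMR1 KO fraction 5/6 (0 and 1 without 2 and 3). The single libraries that moved a count by over 1.5 times were, for WT pellet over fraction 5/6, fraction 5/6 replicate 3 (6), and for FMR1 KO pellet over fraction 5/6, pellet replicate 1 (1) and fraction 5/6 replicates 1 (2) and 3 (3). Between preparations they were, in the WT pellet, standard replicates 1 (7) and 2 (9) and low nuclease replicates 1 (9) and 3 (7), and in the FMR1 KO pellet, standard replicates 1 (3), 2 (3) and 3 (2) and low nuclease replicates 1 (12), 2 (2) and 3 (2). In WT fraction 5/6 they were standard replicates 1 (1), 2 (0) and 3 (12) and low nuclease replicates 1 (2), 2 (0) and 3 (0), and in FMR1 KO fraction 5/6 standard replicates 1 (1) and 2 (1) and low nuclease replicates 2 (2) and 3 (1). Shared pellet sites ranged from 4 to 10 (7 and 8 without WT pellet replicates 2 and 3, 10 without FMR1 KO pellet replicate 2), with 1 at 3 nt and 24 at 12 nt.

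Some genes changed sign. In the low nuclease preparation, and then without its 3 dominated RNA libraries, pellet over RNA was -1.93 and -1.51 for Syp and -1.0 and -0.78 for Sv2a in WT. In FMR1 KO it was -2.23 and -2.17 for Syp, -1.01 and -1.68 for Sv2a, -0.72 and -0.31 for Itsn1, -0.16 and -0.43 for Sv2b, -0.26 and -0.86 for Syt4 and -1.70 and -1.91 for Syt11. In low nuclease WT without the dominated libraries, pellet over RNA was -0.24 ± 0.19 for Itsn1. Itsn1 was called higher in standard WT and was not called in this fit. Fraction 5/6 over RNA was -0.74 and -0.41 for Itsn1 in WT, -1.03 and -0.62 for Itsn1 in FMR1 KO (1.21 in the standard preparation) and -2.79 and -2.72 for Syp in FMR1 KO, and Ap2a1 was at -0.21 in WT only without the dominated libraries. Without TMM 10 genes called higher in WT and 12 in FMR1 KO changed sign in pellet over RNA, and 9 and 9 in fraction 5/6 over RNA. Among them pellet over RNA was -0.062 for Syp in WT and -0.72, -0.42 and -0.47 for Sv2b, Syt4 and Syt11 in FMR1 KO, and fraction 5/6 over RNA -0.53 for Syp in FMR1 KO. With low nuclease RPFs against standard RNA, Syp, Sv2a and Syt11 kept their sign (2.40, 2.65 and 1.56 in WT and 1.90, 1.98 and 1.06 in FMR1 KO), pellet over RNA was 0.10 for Syngr1 in WT and 0.67 and 0.90 for Syngr3 and Syt1 in FMR1 KO, and fraction 5/6 over RNA was 0.12, 0.90 and 0.55 for Syngr1, Syngr3 and Syt1 in FMR1 KO. With 3 libraries a group, a gene near the threshold is not settled.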

Other observations

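Itsn1, the scaffold intersectin 1, had RPF levels that differed among libraries of one group in the standard preparation, at 528.5 and 930.1 CPM in WT fraction 5/6 replicates 1 and 2, with 353.1 CPM in the library labelled WT fraction 5/6 replicate 3, which goes against its label, and 312.6, 502.1 and 243.7 CPM in FMR1 KO fraction 5/6. In standard RNA it was at 284.7 to 313.0 CPM, and in the low nuclease RPF libraries at 207.1 to 276.3 CPM. In low nuclease fraction 5/6, 5 of the 39 genes did not overlap between genotypes, against 16.7% of all genes. Dnajc5, Vamp2, Cltb and Ap2m1 were above and Picalm was below in FMR1 KO, and none of them was called by edgeR.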
